A study of Mus musculus with 9 samples.

Results

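Intestinal epithelial cells (IECs) make cytokines that keep neighbouring immune cells alive or alert them, together with soluble proteins that block those cytokines. The 9 genes described here were chosen by name: the cytokines Il7, Il15, Tslp, Il18, Il33 and Csf1, the IL-15 presenting chain Il15ra, and the natural antagonists Il18bp and Il1rn. They are 9 of the 29288 genes in the count table. RNA was sequenced from crypt IECs of the proximal small intestine, sorted as live EpCAM+ CD45- CD31- Ter119- cells from wild-type (WT) female C57BL/6J mice. In total, 3 mice received phosphate-buffered saline (PBS) and were sampled at 18 h (control). After 2 µg of α-galactosylceramide (αGalCer) given intraperitoneally, 3 mice were sampled at 18 h (18h-αGal) and 3 others at 72 h (72h-αGal). αGalCer is a glycolipid that activates natural killer T (NKT) cells when presented on CD1d, and the study asked how this activation alters IECs in vivo. No control mice were sampled at 72 h, so for 72h-αGal the treatment and the time of sampling cannot be told apart.

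IL-7 and IL-15 maintain lymphocytes in the gut wall. IL-15 is held at the cell surface by IL-15Rα and shown from there to intraepithelial lymphocytes. IL-18 and IL-33 belong to the IL-1 family, are stored inside epithelial cells and act as alarm signals once processed or released. IL-18 binding protein (encoded by Il18bp) is a secreted decoy that captures mature IL-18, is known to be induced by interferon-γ, and has no activity of its own. The IL-1 receptor antagonist (Il1rn) occupies the IL-1 receptor without triggering it, TSLP acts on dendritic cells and type 2 lymphocytes, and CSF-1 supports macrophages.

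The libraries held between 8887861 and 32722293 counts, a 3.68-fold range, and a floor of 3 counts corresponded to 0.0917 to 0.338 CPM (the count scaled to the total of its library). Control replicate 3, the smallest library, stood apart from the other 8 on the second principal component. All 8 epithelial markers were detected in every library, with Epcam at 8895 raw counts or more. The summed level of 11 myeloid markers was 16.8 to 31.1 CPM in control, 21.5 to 36.1 CPM in 18h-αGal and 35.7 to 50.9 CPM in 72h-αGal, most of it from Cd68, and Adgre1, C1qa and Tyrobp were at 0 in 7 of 9 libraries. The 11 lymphocyte markers summed to 7.82 to 9.22 CPM in control, 4.75 to 10.2 CPM in 18h-αGal and 6.27 to 16.3 CPM in 72h-αGal, and Cd3e was at 0 in 5 of 9 libraries.

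The windows around the annotated transcription starts (250 bases before to 50 after, from RefSeq on GRCm38.p6) are shown for the decoy that changed most, for the cytokine it captures, and for Il15ra, the member whose windows held an interferon-type motif. The table gave windows for 6 of the 9 genes and none for Il7, Il15 and Tslp. The motifs searched on both strands were the STAT-binding GAS element (TTCNNNGAA) and the core of the interferon regulatory factor site (IRF core, GAAANNGAA). Capitals mark a match, and each line reads 5′ to 3′ on the strand of the gene.

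Il18bp, chr7:102018183-102018482, minus strand: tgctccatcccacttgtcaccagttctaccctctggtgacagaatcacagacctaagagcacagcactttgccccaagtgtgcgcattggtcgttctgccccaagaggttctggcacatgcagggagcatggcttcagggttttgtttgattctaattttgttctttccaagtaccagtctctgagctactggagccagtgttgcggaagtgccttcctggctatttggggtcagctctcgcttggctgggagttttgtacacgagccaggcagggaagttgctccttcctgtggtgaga
Il18, chr9:50554450-50554749, plus strand: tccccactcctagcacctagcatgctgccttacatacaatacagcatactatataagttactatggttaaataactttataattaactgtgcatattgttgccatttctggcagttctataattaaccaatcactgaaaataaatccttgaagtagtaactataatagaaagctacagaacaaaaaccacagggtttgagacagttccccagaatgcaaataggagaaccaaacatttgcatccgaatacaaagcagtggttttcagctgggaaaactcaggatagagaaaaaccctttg
Il15ra, upstream start, chr2:11705043-11705342, plus strand: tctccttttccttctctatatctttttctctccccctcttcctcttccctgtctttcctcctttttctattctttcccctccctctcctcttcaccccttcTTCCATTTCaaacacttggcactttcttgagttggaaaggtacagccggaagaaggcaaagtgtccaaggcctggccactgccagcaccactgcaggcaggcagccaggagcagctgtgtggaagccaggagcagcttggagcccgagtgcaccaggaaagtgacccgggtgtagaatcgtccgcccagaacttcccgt
Il15ra, downstream start, chr2:11705462-11705761, plus strand: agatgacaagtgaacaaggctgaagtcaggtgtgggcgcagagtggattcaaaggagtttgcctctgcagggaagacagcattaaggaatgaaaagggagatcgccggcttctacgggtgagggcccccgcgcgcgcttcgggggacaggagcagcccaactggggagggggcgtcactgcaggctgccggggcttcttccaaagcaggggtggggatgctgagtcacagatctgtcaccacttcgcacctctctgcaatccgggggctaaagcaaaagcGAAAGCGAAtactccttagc

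The windows of Il18bp and Il18 held neither set of letters, and the same was true of the windows of Csf1, Il33 and Il1rn. Each Il15ra window held 1 IRF core, on the minus strand at position -149 from the upstream start and on the plus strand at position 31 from the downstream start. Among all 32851 windows of this length, 8.56% held an IRF core and 8.3% a GAS element. A match is a run of letters and says nothing about binding, and the absence of a match concerns these 300 bases only.

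Of the 9 genes, 8 could be tested, and Il18bp alone passed the test across all genes after NKT cell activation. Its transcript rose 5.64-fold in 18h-αGal (95% interval 3.80 to 8.37) and was back at the control level in 72h-αGal. The cytokine that it captures, Il18, was not called against control at either time. In 18h-αGal against control, 1 of 8 tested members was called higher (edgeR quasi-likelihood test, Benjamini-Hochberg adjusted p under 0.05 over all 18933 genes tested) and 0 lower, beside 3.27% of all tested genes called higher and 2.69% called lower, 5.96% together. DESeq2 also called 1 member. Tslp did not pass the filter on low counts and was not tested. The median log2 fold change of the 8 tested members was 0.08, and that of all tested genes was -0.03. Groups did not overlap for 1 member, beside 23.8% of all tested genes.

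**Figure D1:**
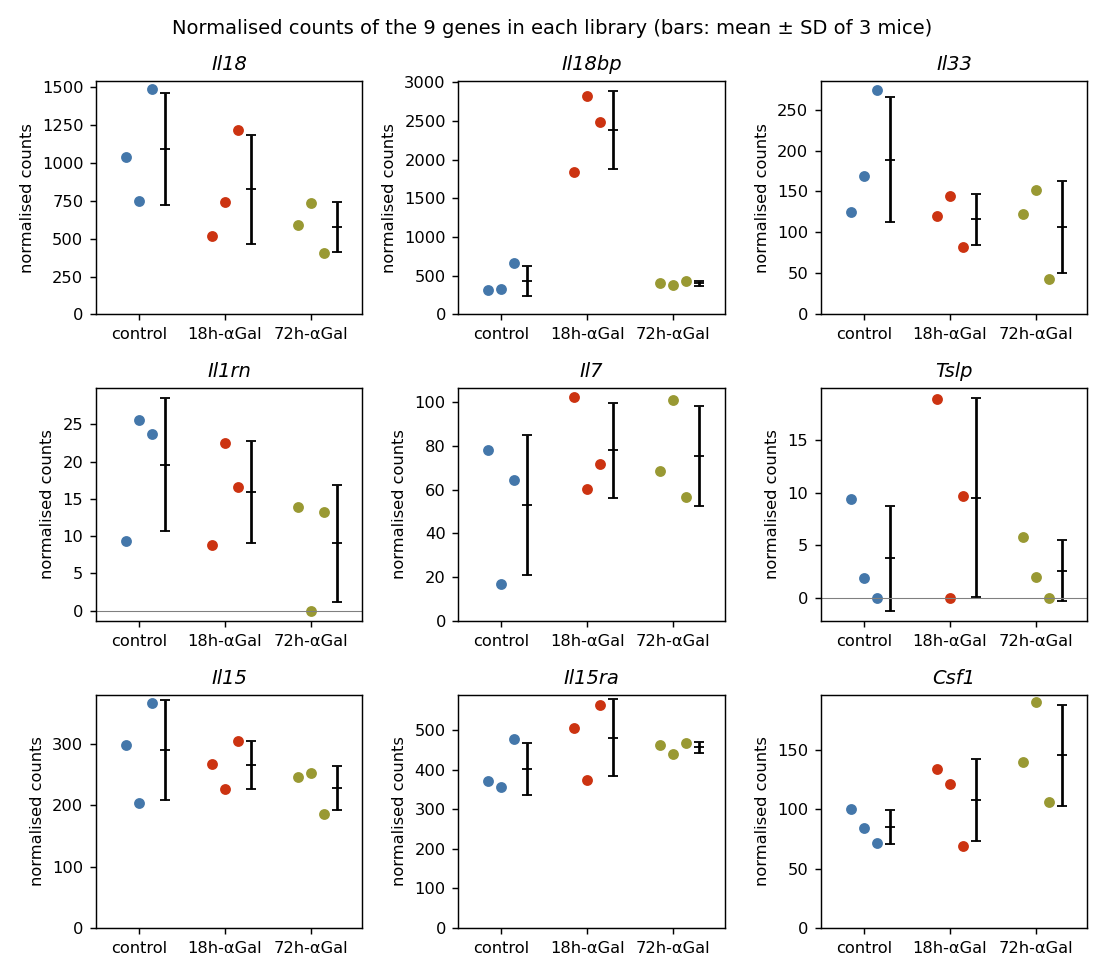
Normalised counts (vertical axis, linear) of the 9 genes in each of the 9 libraries, with the mean and SD of 3 mice beside the points of each group. Il18bp in the 3 18h-αGal libraries lies between 1838 and 2822, above the other 6 libraries (320.7 to 658.5), and the points of most other genes overlap between groups.

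Il18bp had 320.7, 321.8 and 658.5 normalised counts in control replicates 1, 2 and 3, 1838, 2822 and 2493 in 18h-αGal and 401, 373 and 434 in 72h-αGal. All 18h-αGal libraries were above all others, and the 72h-αGal libraries lay inside the control range. The log2 fold change in 18h-αGal against control was 2.50 ± 0.26 (SE, n = 3 mice per group, edgeR adjusted p = 0.000257). Without control replicate 3, which had the highest control value, it was 2.89. In 72h-αGal against 18h-αGal the log2 fold change was -2.56 ± 0.26 (edgeR adjusted p = 0.000162), and in 72h-αGal against control it was -0.06 ± 0.25 with an interval of -0.61 to 0.49. These comparisons share libraries and are not independent of each other. In bulk RNA from sorted cells, more RNA per cell and more cells of a type that expresses a gene cannot be told apart. Markers of epithelial cell types also moved in 18h-αGal. Of 6 markers each (5 tested for tuft cells), 2 of enteroendocrine, 2 of tuft and 1 of goblet cells were called higher, beside 3.27% of all tested genes. The goblet sum went both ways, with 17560, 6686 and 5770 CPM in 18h-αGal replicates 1, 2 and 3. It was 11103 to 12385 CPM in control and 10836 to 19253 CPM in 72h-αGal. The enteroendocrine sum was 355 to 427 CPM in control, 487 to 727 CPM in 18h-αGal and 161 to 221 CPM in 72h-αGal, and the tuft sum was 113 to 235, 221 to 388 and 133 to 231 CPM. The stem cell sum was 2012 to 4495 CPM in control, 568 to 2042 CPM in 18h-αGal and 2832 to 4832 CPM in 72h-αGal, with 0 of 6 stem cell markers called against control. Their part in the Il18bp values was not tested.

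The exons of Il18bp overlap those of Numa1, a mitotic spindle gene on the opposite strand, over 446 bases or 8.98% of the Il18bp exon length. Since the strand setting of the counting was not given, it is unknown whether reads from this stretch were counted, and for which gene. Numa1 had 4575, 4719 and 4603 normalised counts in control, 3760, 3543 and 3621 in 18h-αGal and 4893, 4769 and 4640 in 72h-αGal. Numa1 was thus lower in every 18h-αGal library, with a log2 fold change of -0.34 ± 0.10 against control (edgeR adjusted p = 0.0503). The part of the shared stretch in the Il18bp values was not tested. Exons of Il7 (11.7% of their length), Il15 (5.29%), Csf1 (2.71%) and Il33 (2.57%) overlap those of non-coding genes on the opposite strand. The part of these stretches was not tested either.

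Il18 itself, the precursor of the cytokine, had 1042, 749 and 1488 normalised counts in control, 518, 742 and 1221 in 18h-αGal and 591, 736 and 405 in 72h-αGal. The 18h-αGal libraries overlapped the control libraries, while all 72h-αGal libraries were below the lowest control library by a small margin. Its log2 fold change was -0.39 ± 0.35 in 18h-αGal (edgeR adjusted p = 0.586, interval -1.17 to 0.38) and -0.90 ± 0.35 in 72h-αGal (edgeR adjusted p = 0.826, interval -1.68 to -0.12). Neither passed the threshold. The spread of Il18 within groups was read beside 7 enterocyte markers (Alpi, Fabp1, Fabp2, Apoa1, Apoa4, Sis and Slc5a1). Their summed level was 5628, 4053 and 8304 CPM in control, 5881, 5563 and 8666 CPM in 18h-αGal and 3761, 4572 and 2640.3 CPM in 72h-αGal. The highest library of each group was thus the same for Il18 and for this sum, and the 72h-αGal libraries ranked in the same order in both. In 18h-αGal, replicates 1 and 2 ranked in opposite order. Sis had the highest mean level in the sum (3068 CPM), and single markers differed from it. Alpi was highest in control replicate 1 among the control libraries, and Apoa1 and Apoa4 in replicate 1 among the 18h-αGal libraries. The part of enterocyte content in the Il18 values was not tested.

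Because the decoy and its cytokine were read in the same libraries, their balance was described by the ratio of levels per length (CPM per kb of exon). The Il18bp to Il18 ratio was 0.186, 0.260 and 0.268 in control, 2.15, 2.30 and 1.24 in 18h-αGal and 0.411, 0.307 and 0.650 in 72h-αGal. The decoy transcript therefore outnumbered the cytokine transcript per length in each 18h-αGal library and in none of the other 6. This depends on the lengths used, which join all annotated exons of a gene. Without scaling to length, the ratio of raw counts was also above 1 in 72h-αGal replicate 3 (1.07). The group means were 0.238 ± 0.045 in control, 1.90 ± 0.577 in 18h-αGal and 0.456 ± 0.176 in 72h-αGal (SD, n = 3). The 3 groups did not overlap, but the share of other gene pairs without overlap was not computed and the ratio was not tested. In 72h-αGal against control neither gene was called (edgeR adjusted p = 0.826 for Il18 and 0.996 for Il18bp). In 72h-αGal, where the ratio was above control, Il18 was at 10.2 ± 2.57 CPM per kb against 18.3 ± 4.92 in control, and Il18bp was at 4.35 ± 0.509 CPM per kb against 4.39 ± 1.63 CPM per kb in control. The ratio is between transcripts and was not measured for the proteins.

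**Figure D2:**
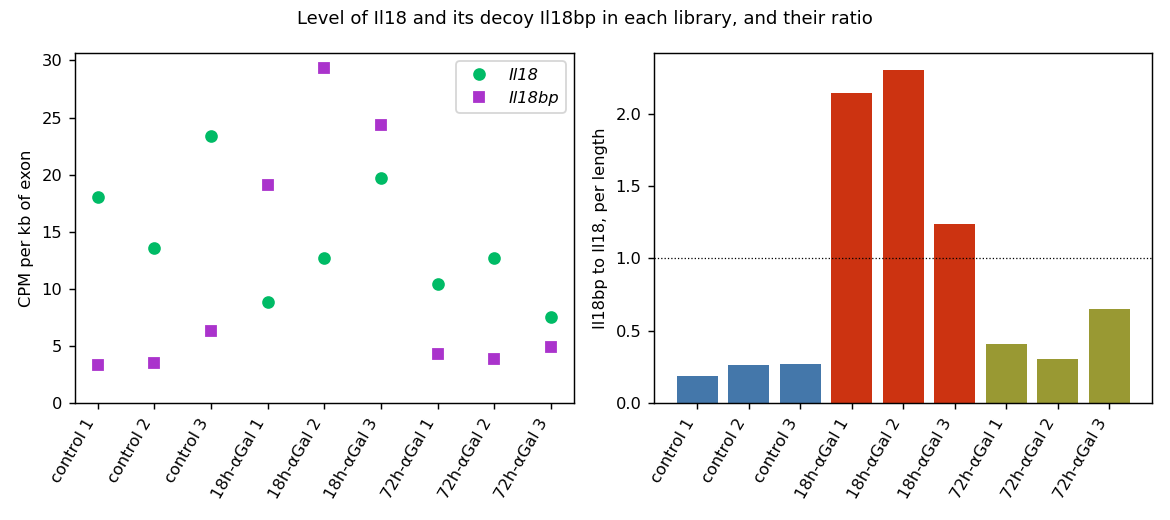
Left, level of Il18 (circles) and Il18bp (squares) in CPM per kb of exon in each library. Right, their ratio per library (bars, linear axis from 0, dotted line at 1). The ratio is above 1 in the 3 18h-αGal libraries, from 1.24 to 2.30, and at most 0.650 elsewhere.

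Il33, a nuclear alarm cytokine, had 125, 169 and 273 normalised counts in control, 120, 145 and 82.8 in 18h-αGal and 123, 152 and 43.4 in 72h-αGal. Groups overlapped, with the lowest value in 72h-αGal replicate 3 and the highest in control replicate 3. The log2 fold change was -0.67 ± 0.43 in 18h-αGal (edgeR adjusted p = 0.415) and -0.81 ± 0.43 in 72h-αGal (edgeR adjusted p = 0.865), with intervals that included 0. Il1rn was close to the detection limit, with 9.4, 25.6 and 23.8 normalised counts in control, 8.8, 22.5 and 16.6 in 18h-αGal and 13.9, 0 and 13.2 in 72h-αGal. Its groups overlapped. The interval in 18h-αGal against control ran from -2.66 to 2.11 on the log2 scale, so that neither a rise nor a fall of 4-fold lay outside it.

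Of the lymphocyte survival genes, Il7 had 78.1, 17.1 and 64.2 normalised counts in control, 102.1, 60.2 and 71.7 in 18h-αGal and 68.3, 100.9 and 56.7 in 72h-αGal. Groups overlapped, and control replicate 2 was the lowest library of all. Its log2 fold change was 0.57 ± 0.51 in 18h-αGal (edgeR adjusted p = 0.585) and 0.52 ± 0.51 in 72h-αGal (edgeR adjusted p = 0.94). These values were 0.14 and 0.09 without control replicate 2 but 1.03 and 0.98 without control replicate 1, none of them called. On the log2 scale the Il7 interval in 18h-αGal against control ran from -0.52 to 1.66, so that a rise of up to 3.17-fold lay inside it. By qPCR, the authors report a strong induction of Il7 in IECs of WT mice after αGalCer, which was lost without CD1d or the IFN-γ receptor. The interval is too wide to tell a rise of Il7 from no change. Tslp had 16, 2 and 0 raw counts in control, 30, 0 and 7 in 18h-αGal and 5, 2 and 0 in 72h-αGal, so that 1 library of each group held none and no fold change was drawn.

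Il15 had 298, 204 and 366 normalised counts in control, 267, 226 and 305 in 18h-αGal and 246, 252 and 186 in 72h-αGal. The groups overlapped at both times. Its log2 fold change was -0.11 ± 0.25 in 18h-αGal (edgeR adjusted p = 0.868, interval -0.64 to 0.43) and -0.32 ± 0.25 in 72h-αGal (edgeR adjusted p = 0.904, interval -0.86 to 0.22). Il15ra, which carries IL-15 to the cell surface, had 371, 357 and 478 normalised counts in control, 507, 375 and 563 in 18h-αGal and 463, 441 and 467 in 72h-αGal. The groups overlapped here too. The log2 fold change of Il15ra was 0.28 ± 0.19 in 18h-αGal (edgeR adjusted p = 0.469, interval -0.14 to 0.69), so that a doubling lay outside the interval. Per length, Il15ra exceeded Il15 in every library, with a ratio of 2.24 ± 0.431 in control, 2.81 ± 0.202 in 18h-αGal and 3.20 ± 0.633 in 72h-αGal.

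Csf1, the macrophage growth factor, had 99.8, 84.5 and 71.3 normalised counts in control, 133.7, 121.3 and 69.0 in 18h-αGal and 140.2, 190.6 and 106.0 in 72h-αGal. The 18h-αGal libraries overlapped the control libraries and the 72h-αGal libraries were all above them. Its log2 fold change was 0.35 ± 0.35 in 18h-αGal (edgeR adjusted p = 0.644) and 0.77 ± 0.35 in 72h-αGal (edgeR adjusted p = 0.827, interval 0.02 to 1.52), neither of which passed the threshold. The summed myeloid marker level was also higher in each 72h-αGal library than in each control library, a difference that lay in Cd68. The other 10 markers summed to 4.39 to 10.2 CPM in control and 6.99 to 10.7 CPM in 72h-αGal, which overlap. The part of Cd68-expressing cells in the Csf1 values was not tested.

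In 72h-αGal against control, 0 of 8 members were called by edgeR and 0 by DESeq2, beside 0.0264% of all tested genes by edgeR. At an unadjusted p under 0.05 there were 2, Il18 and Csf1, beside 5.94% of all tested genes, and these were also the 2 members without overlap between groups, beside 12.7%. The median log2 fold change of the 8 members was -0.19 and that of all tested genes was 0.00. In 72h-αGal against 18h-αGal, 0 of 8 members were called higher and 1 lower (Il18bp), beside 4.18% and 6.04% of all tested genes, 10.2% together. Only Il18bp showed no overlap in that comparison, beside 32.8% of all tested genes. The difference between both αGalCer groups is also the difference between their comparisons with the shared control. The value of Il18bp against control thus differed between 18h-αGal and 72h-αGal by this test.

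**Figure D3:**
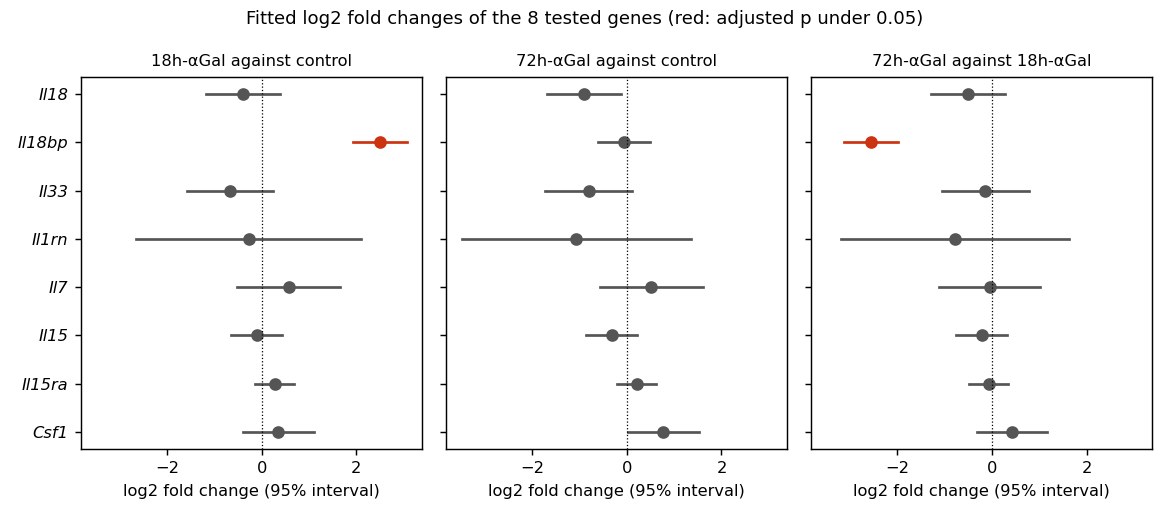
Log2 fold change (horizontal axis, point) with its 95% interval (line) for the 8 tested members in the 3 comparisons, red where the adjusted p was under 0.05. Il18bp stands at 2.50 in 18h-αGal against control, at -0.06 in 72h-αGal against control and at -2.56 between both times, and the widest intervals belong to Il1rn.

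The order of the levels per length changed at its top. In control, Il18 led with 18.3 ± 4.92 CPM per kb, followed by Il15ra at 4.60 ± 0.421 and Il18bp at 4.39 ± 1.63, whose libraries overlapped. Il15 at 2.11 ± 0.459 and Il33 at 1.54 ± 0.525 CPM per kb came next and overlapped each other. Csf1, Il7, Il1rn and Tslp were below 1 CPM per kb on average, each overlapping its neighbour. In 18h-αGal, Il18bp at 24.2 ± 5.14 CPM per kb stood first and overlapped Il18 at 13.8 ± 5.47, ahead of Il15ra at 5.45 ± 0.965 and Il15 at 1.93 ± 0.227. In 72h-αGal, Il18 led again at 10.2 ± 2.57 CPM per kb, without overlap with Il15ra at 5.51 ± 0.380 or, after it, Il18bp at 4.35 ± 0.509.

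The genes whose log2 CPM followed each member most closely were described by Pearson's r over the 9 libraries, among 15380 genes with a mean of at least 1 CPM. For Il18bp these were Samhd1 (r = 0.994), which encodes an interferon-inducible nucleotide hydrolase, Gbp7 (r = 0.991), which encodes an interferon-inducible guanylate-binding protein, and Ctsz (r = 0.990), which encodes a lysosomal cathepsin. Samhd1 had a log2 fold change of 1.68 in 18h-αGal (edgeR adjusted p = 5.24e-05), Gbp7 one of 2.85 (edgeR adjusted p = 6.65e-05) and Ctsz one of 0.93 (edgeR adjusted p = 0.00174). For Il18 the closest genes were Kifc2 (r = 0.984), Gcnt2 (r = 0.971) and Adipor2 (r = 0.965), none of them called in 18h-αGal or 72h-αGal. For Il15 they were Eps8 (r = 0.970), Mgst3 (r = 0.970) and Dpep1 (r = 0.966), of which Eps8 and Dpep1 are known from the brush border. The highest r of the other members was 0.946 for Il33 with Aktip, 0.940 for Il15ra with Zfp592, 0.937 for Csf1 with Donson, 0.929 for Il7 with Gm13171 and 0.917 for Il1rn with Gm3791. Between members r was highest for Il15 with Il18 (0.808) and Il18 with Il33 (0.583), and lowest for Il1rn with Csf1 (-0.738) and Il18 with Csf1 (-0.616). All these values share the same 9 libraries and 3 groups, and genes that differ between groups in a like way correlate through that difference.

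The rest of the pathway was read from 4 lists. Of 12 receptor genes for the members, 6 were tested and edgeR called 0 in each comparison. At an unadjusted p under 0.05 there were 2 in 18h-αGal against control, 0 in 72h-αGal against control and 2 between both times, beside 20.8%, 5.94% and 24.3% of all tested genes, and DESeq2 called 1, 0 and 0. The receptor genes with the highest level were Sigirr, which encodes an inhibitory receptor of the IL-1 family, with a log2 fold change of -0.60 ± 0.26 in 18h-αGal (edgeR adjusted p = 0.193), Il1rap, the shared accessory chain of the IL-1 and IL-33 receptors, with -0.75 ± 0.21 (edgeR adjusted p = 0.0517), and Crlf2, the TSLP receptor chain, with 0.61 ± 0.57 (edgeR adjusted p = 0.604). Transcripts of some receptor chains carried by lymphocytes were scarce, with at most 12 raw counts for Il2rb, 10 for Il2rg and 10 for Il18rap in any library. Il18r1, the other IL-18 receptor chain listed, had 6 to 99 raw counts and was tested. Its log2 fold change was 0.53 ± 0.72 in 18h-αGal (edgeR adjusted p = 0.743) and -1.03 ± 0.74 in 72h-αGal (edgeR adjusted p = 0.893). Between both times it was -1.56 ± 0.74 (edgeR adjusted p = 0.211). Il7r, Il1rl1 and Il1r2 were not analysed here. Of 10 genes that signal below these receptors, all were tested and edgeR called 0 in each comparison, as did DESeq2. At an unadjusted p under 0.05 there was 1 in 18h-αGal against control, beside 20.8% of all tested genes, and 0 in the other 2 comparisons. Their median log2 fold change in 18h-αGal was -0.03, equal to that of all tested genes at this precision, and Jak1, Irak1 and Traf6, the highest in level, had 0.01 ± 0.11, 0.06 ± 0.13 and -0.18 ± 0.13.

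IL-18 is made as an inactive precursor and cut by caspase-1 in the inflammasome. Of 13 genes of this machinery, 12 were tested, and edgeR called 0 in 18h-αGal (3 at an unadjusted p under 0.05, beside 20.8% of all tested genes, and 1 by DESeq2) and 0 in 72h-αGal against control (0 at an unadjusted p under 0.05, 0 by DESeq2). Their median log2 fold change in 18h-αGal was -0.11, beside -0.03 for all tested genes. Between both times 2 of the 12 were called, beside 10.2% of all tested genes, and 3 by DESeq2. Casp1, the enzyme that cuts the precursor, had 1907, 1728.5 and 2423 normalised counts in control, 2081, 2445 and 2682 in 18h-αGal and 1684, 1804 and 1408.5 in 72h-αGal. The 72h-αGal libraries were all below the 18h-αGal libraries, with a log2 fold change of -0.55 ± 0.14 (edgeR adjusted p = 0.0248), and both overlapped control. Casp4, the caspase that senses intracellular lipopolysaccharide, had 375, 304 and 654 normalised counts in control, 278, 219 and 217 in 18h-αGal and 542, 438 and 423 in 72h-αGal. All 18h-αGal libraries were the lowest, and the log2 fold change of 72h-αGal against 18h-αGal was 0.98 ± 0.26 (edgeR adjusted p = 0.0262). Without single libraries these 2 calls were lost in some cases, as given with the other settings.

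Of 35 further cytokines and growth factors that act on immune cells, 29 were in the table and 19 were tested. In 18h-αGal 3 were called higher and 0 lower, beside 3.27% and 2.69% of all tested genes, and DESeq2 called 5 in all. At an unadjusted p under 0.05 there were 7, beside 20.8% of all tested genes. Those not called by edgeR were all lower: Il17c (log2 fold change -2.31 ± 0.69), Il16 (-1.26 ± 0.39), Kitl (-0.37 ± 0.14) and Tgfb2 (-3.11 ± 1.22). The median log2 fold change of the 19 was -0.37, beside -0.03 for all tested genes. Mif, macrophage migration inhibitory factor, had 909.8, 1027 and 863 normalised counts in control, 2880, 3054 and 2139 in 18h-αGal and 1151, 988 and 808 in 72h-αGal (log2 fold change in 18h-αGal 1.53 ± 0.16, edgeR adjusted p = 0.000124). Mif has processed pseudogenes in the mouse annotation and shares 12.9% of its exon length with a non-coding gene on the other strand, so its reads are uncertain. Tnfsf10, which encodes the death receptor ligand TRAIL, had 2542, 2303 and 3124 normalised counts in control, 5844, 5960.1 and 4560.2 in 18h-αGal and 2758, 2589 and 2854.5 in 72h-αGal (log2 fold change in 18h-αGal 1.05 ± 0.14, edgeR adjusted p = 0.000528). Lif, a cytokine of the IL-6 family, had 129.8, 138 and 157 normalised counts in control, 234, 308 and 352 in 18h-αGal and 197, 229 and 131 in 72h-αGal (log2 fold change in 18h-αGal 1.08 ± 0.27, edgeR adjusted p = 0.0271). All 3 were higher in every 18h-αGal library than in every control library. The call of Lif was lost in 6 of 15 alternative settings, with the log2 fold change between 0.96 and 1.23, whereas those of Mif and Tnfsf10 held in all 15. In 72h-αGal against control edgeR called 0 of the 19 (0 at an unadjusted p under 0.05, 0 by DESeq2).

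Between both times Mif and Tnfsf10 were called lower again, with log2 fold changes of -1.45 ± 0.16 (edgeR adjusted p = 0.000132) and -0.99 ± 0.14 (edgeR adjusted p = 0.000593). Il16, which encodes a chemoattractant of CD4+ cells, was called higher. It had 134, 125 and 97.5 normalised counts in control, 49.2, 63.8 and 34.5 in 18h-αGal and 164, 97.8 and 263 in 72h-αGal, so that the 18h-αGal libraries were the lowest. Its log2 fold change in 72h-αGal against 18h-αGal was 1.83 ± 0.39 (edgeR adjusted p = 0.00911). The exons of Il16 overlap those of Stard5 on the other strand over 16.3% of their length.

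**Figure D4:**
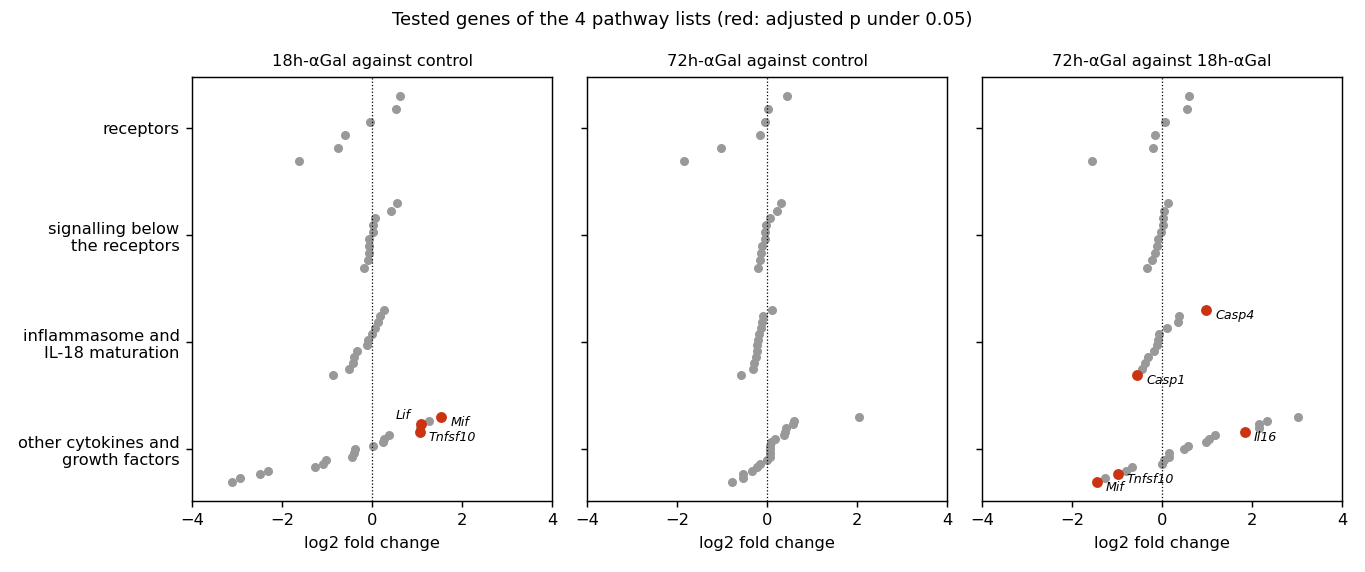
Log2 fold change (horizontal axis) of each tested gene in the 4 pathway lists (rows: 6 receptors, 10 signalling genes, 12 inflammasome genes, 19 other cytokines), in the 3 comparisons. Genes with an adjusted p under 0.05 are red and named: 3 in 18h-αGal against control, 0 in 72h-αGal against control and 5 between both times. Of all tested genes, 5.96%, 0.0264% and 10.2% were called in these comparisons. Within a row the height only spreads the points.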

How the data were processed

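The authors prepared ribosomal RNA-depleted directional libraries and sequenced 100 bp reads. The submitters' processing notes name HISAT2, featureCounts (Subread) and DESeq2 1.42.0. The notes name the builds GRCm38 and mm10, whereas the study's methods name GRCm39. The annotation release and strand setting are not given in the sources used here. The authors deposited a raw read count per gene and library, and a normalised signal (counts divided by DESeq2 size factors, called normalised counts here), which is not corrected for length. The lowest gene total over the 9 libraries was 6.

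Counts were tested with edgeR 4.0.16 in R 4.3.3 (filterByExpr, TMM, robust quasi-likelihood fit of 3 group means over 9 libraries, 1 mouse each). The filter kept 18933 of 29288 genes, and adjusted p-values follow Benjamini and Hochberg over these genes. Fold intervals are 95% intervals of the fit. Floors of 3 counts cover counting error only. Exon lengths, overlaps and symbols came from GENCODE vM39 (28480 identifiers matched), and promoter windows from RefSeq on GRCm38.p6. The script was tested on simulated data. The 15 alternatives comprised DESeq2, other scalings, filters and designs, and leaving out each of 9 libraries. Correlations used log2 CPM with a prior count of 2.

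The members and lists were chosen with earlier results of these data known. Named genes are the members, the called genes of 4 pathway lists (otherwise those of highest CPM), and the 3 genes most like each member, of which the text gives a selection. Numa1, Stard5, Il18r1, Il17c, Kitl, Tgfb2 and the scarce receptor genes were added after their values were seen. Replicate numbers name different mice. 1 further enterocyte marker is not reported here and was left out of the summed level.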

Additional observations from a re-analysis of the deposited data

Results flagged for a closer look

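For 6 genes the values against the shared control differed between both αGalCer groups, by the test of 72h-αGal against 18h-αGal (edgeR adjusted p under 0.05). The control was sampled at 18 h only, so treatment and time cannot be told apart at 72 h. The log2 fold change in 72h-αGal against 18h-αGal was -2.56 for Il18bp, -1.45 for Mif and -0.99 for Tnfsf10, all of which were called higher in 18h-αGal against control. It was -0.55 for Casp1, 0.98 for Casp4 and 1.83 for Il16, none of which was called against control at either time. Groups of 3 libraries were too small for a check for single outlying values.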

How the results depend on the processing

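Over 15 alternative settings, edgeR or DESeq2 called the same number of members as in the report in each comparison (1, 0 and 1). The log2 fold change of Il18bp in 18h-αGal against control stayed between 2.32 and 2.89 (adjusted p 1.94e-19 to 0.00289), and in 72h-αGal against 18h-αGal between -2.71 and -2.41. Mif and Tnfsf10 kept their calls in all 15. The call of Lif was lost in 6 of 15, those of Casp1 and Casp4 in 5 of 15 each and that of Il16 in 1 of 15, and the cause was not tested.

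The number of all genes called in 18h-αGal against control was 1128, and it was 1720 with DESeq2, 593 when only both groups were fitted and 432 to 1556 when single libraries were left out (432 without 18h-αGal replicate 2, 489 without control replicate 1 and 1556 without control replicate 3). In 72h-αGal against control it was 5, and it was 31 with DESeq2, 13 without a filter, 1 with the replicate block and 0 to 20 without single libraries. In 72h-αGal against 18h-αGal it was 1936, and 831 to 2593 without single libraries. The cause was not tested. With the replicate block, 781 and 1371 genes were called in the first and last comparison. Same-numbered libraries deviated together with r of -0.150 to 0.115, so these values showed no pairing by number. Whether same-numbered mice shared a day or a preparation is not given.

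Signs turned only for values close to 0 that were not called. Il18bp in 72h-αGal against control was 0.0093 with library totals (-0.24 to 0.34 without single libraries, 0.34 without control replicate 3). In 72h-αGal against 18h-αGal, Il7 was 0.016 with library totals and 0.046 with the replicate block (-0.32 to 0.21 without single libraries), Il15ra was 0.018 with library totals (-0.21 to 0.058) and Il33 ranged from -0.49 to 0.24. In 18h-αGal against control, Il15 ranged from -0.30 to 0.078 and Il1rn from -0.63 to 0.019 without single libraries. Scaling by library totals put the median of all genes in 72h-αGal against 18h-αGal at 0.12. Low counts limit the precision for Tslp and Il1rn, with at most 30 and 27 raw counts in any library.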
